A study of Mus musculus with 24 samples.

Results

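Slco2b1 encodes a membrane carrier of the organic anion transporting polypeptide family, and it was followed here as 1 gene among the 56980 listed in the count table of cultured mouse microglia. The gene was found by its symbol, which belongs to 1 identifier (ENSMUSG00000030737.18), and it was among the 12648 genes with enough counts to be tested. It was chosen by its measured log2 changes under bafilomycin A1, as the myeloid gene with the largest progressive decline, so its differences between bafilomycin A1 and vehicle are given as a description, with no test.

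The cells were primary microglia from wild-type newborn mice, grown out of cortex and hippocampus as mixed glial cultures, shaken off and plated in medium of which 50% was conditioned and 50% fresh. They received 50 nM bafilomycin A1 (BafA1) or the vehicle DMSO for 1, 7, 14 or 22 h. Each of the 8 groups had 3 biological replicates, so 24 libraries were made. The sources used here do not say whether replicates came from separate litters or flasks, and the p-values reflect only how far these libraries scatter. Microglia were obtained by shaking and not by sorting, and other glia can come off with them.

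The family to which Slco2b1 belongs carries large, amphipathic anions across the plasma membrane without using ATP. The human protein, OATP2B1, takes up steroid sulfates such as estrone sulfate, thyroid hormone, porphyrins and a range of drugs, and its uptake is stronger at acidic pH outside the cell. In the mouse brain its transcript is found mainly in microglia and in the endothelium of blood vessels. BafA1 blocks the V-ATPase, the proton pump that acidifies lysosomes and endosomes.

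The start region is shown as the gene's own regulatory sequence, in which a pair of motifs of factors active in myeloid cells overlap. RefSeq gives 3 starts for Slco2b1 on the minus strand of chromosome 7. The window of the outermost start, from 250 bases before to 50 after it, lies at chr7:99711291-99711590 on GRCm38.p6, an older build than the GRCm39 named in the submitters' processing notes, and reads as follows on the gene's strand, with both motifs in capitals:
Slco2b1 start 1: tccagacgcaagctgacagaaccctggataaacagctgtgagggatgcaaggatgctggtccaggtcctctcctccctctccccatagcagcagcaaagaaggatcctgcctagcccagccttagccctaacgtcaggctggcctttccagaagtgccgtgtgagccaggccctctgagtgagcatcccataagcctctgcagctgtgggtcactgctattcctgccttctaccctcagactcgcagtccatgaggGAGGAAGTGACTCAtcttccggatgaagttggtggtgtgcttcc
The capitals hold GAGGAAGT, a core bound by the myeloid factor PU.1, and TGANTCA, the AP-1 motif, which share 1 base. The first begins at base 7 of the 50 after the start and the second at base 14. Each motif was searched on both strands. GAGGAAGT was present in 3.20% of the 32851 RefSeq windows of this length and TGANTCA in 7.81%. Both were somewhere in the same window in 93 (0.283%), and they overlapped in this way in 9 (0.0274%). This order and overlap were read off the Slco2b1 window itself, so the last share does not measure how unusual the gene is. Neither motif was in the windows of the other 2 starts. The E-box CACGTG (7.15% of windows) and the shorter ACGTG that it contains (19.6%) were in none of the 3. A match is a string of letters only, and these data do not bear on binding.

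Library totals ran from 1322169 to 4189077 estimated counts, and most BafA1 libraries were deeper at 14 and 22 h (2805274 to 4189077) than DMSO libraries of those times (1332093 to 3056773). RNA integrity numbers were 9.6 to 10 in the 23 libraries for which the labels give one. Levels are given in CPM, counts scaled to library size with TMM factors, in which 3 counts in a library amount to 0.765 to 2.38 CPM. A gene was called higher or lower at an adjusted p under 0.05 (edgeR quasi-likelihood test, Benjamini-Hochberg over the 12648 genes). By this rule 0 genes were called at 1 h (380 had an unadjusted p under 0.05), 578 were higher and 325 lower at 7 h, 1526 and 1528 at 14 h, and 2270 and 2780 at 22 h. With a block for the replicate number 906 were higher and 649 lower at 7 h. With library totals alone in place of TMM, which shifted the median log2 change of all genes at 22 h from -0.06 to -0.23, the split was 1156 higher and 1830 lower at 14 h and 1550 and 3485 at 22 h.

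In vehicle-treated microglia no change of Slco2b1 with time was detected. At 1 h of DMSO the 3 libraries held 147, 159 and 96.0 CPM, in the order of replicates 1, 2 and 3. At 7 h of DMSO they held 138, 126 and 97.9 CPM. At 14 h of DMSO they held 137, 154 and 113 CPM, and at 22 h 146, 167 and 95.3 CPM. The 12 libraries thus lay between 95.3 and 167 CPM (131 ± 25.4, SD, n = 12), and the groups of the 4 times overlapped. The choice of the gene did not rest on this contrast, which was tested. The same DMSO libraries enter the BafA1 differences behind that choice, so the test is not fully independent of it. Against 1 h, the log2 change in DMSO was -0.14 ± 0.25 (SE) at 7 h, 0.02 ± 0.25 at 14 h and 0.02 ± 0.25 at 22 h. Their 95% intervals ran from -0.66 to 0.38, from -0.50 to 0.54 and from -0.50 to 0.55. None was called, beside 0.00791, 0.15 and 0.403% of all genes called at 7, 14 and 22 h, and the joint test of the 3 time terms gave an adjusted p of 0.998 (edgeR quasi-likelihood F test), beside 27 of the 12648 genes called by it (0.213%). Those intervals come from the fit without a block for the replicate number, so they also take in differences in level between replicates. A time trend within them was not detectable in that fit.

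Replicate 3 was the lowest of its group at all 4 times in DMSO. Its 4 libraries held 95.3 to 113 CPM of Slco2b1, against 126 to 167 CPM in the 8 libraries of replicates 1 and 2. The same 4 libraries held fewer counts of 12 pan-myeloid genes (Csf1r, Aif1, Itgam, Tyrobp and others), 0.574 to 0.631% of all counts against 0.680 to 0.795%. Set against those pan-myeloid counts, Slco2b1 counts came to 1.78 to 1.91% of them in replicate 3 and 1.68 to 2.25% in the other replicates, which overlap. The SD over the 12 libraries was 19.3% of the mean on the CPM scale and 9.07% of the mean per pan-myeloid count. This scale was compared after the low level of replicate 3 had been seen.

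**Figure D1:**
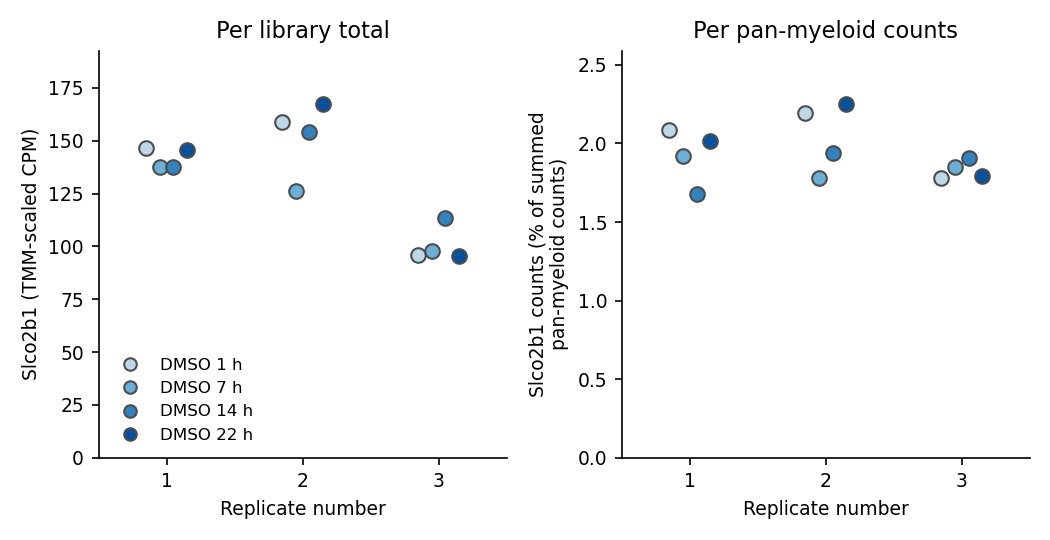
Slco2b1 in the 12 DMSO libraries by replicate number (x axis), in TMM-scaled CPM on the left and as a percentage of summed pan-myeloid counts on the right, both from 0; each point is 1 library and darker points are later times. Replicate 3 lies below the others on the left (95.3 to 113 CPM) and among them on the right (1.78 to 1.91%).

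Under BafA1, Slco2b1 was near its vehicle level at 1 h and then lower at each later time. At 1 h of BafA1 the libraries held 137, 136 and 111 CPM. These lay inside the range of the DMSO libraries of the same hour, and the log2 change was -0.06 ± 0.25 (SE). At 7 h of BafA1 they held 25.4, 14.4 and 11.6 CPM, from 60, 18 and 29 counts. Every BafA1 library of 7 h was below every DMSO library of 7 h, the lowest of which held 3.86 times as much as the highest under BafA1. The log2 change was -2.79 ± 0.30, and without BafA1 7 h replicate 1, the highest of the 3, it was -3.25.

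At 14 h of BafA1 the libraries held 4.76, 2.71 and 4.82 CPM, from 14, 10 and 18.4 estimated counts. The groups were apart again, by 23.5 times from the lowest DMSO to the highest BafA1 library, and the log2 change was -5.03 ± 0.34. At 22 h of BafA1 they held 0.513, 3.61 and 0.606 CPM, from 2, 9 and 2 counts. Replicates 1 and 3 were below the level of 3 counts in their own libraries (0.765 and 0.903 CPM), while replicate 2 was above its own (1.20 CPM). The log2 change at 22 h was -6.59 ± 0.41, and without BafA1 22 h replicate 2 it was -7.80.

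The group means show the same course. In DMSO they were 133.8 ± 33.2 CPM at 1 h, 120.6 ± 20.5 at 7 h, 135.0 ± 20.5 at 14 h and 136.2 ± 37.0 at 22 h (SD, n = 3 each). Under BafA1 they were 127.9 ± 14.9, 17.1 ± 7.27, 4.10 ± 1.20 and 1.58 ± 1.76 CPM. Counts pooled over the 3 libraries, scaled for depth, were 98.5% of vehicle at 1 h (exact 95% interval 89.8 to 108), 13.9% at 7 h (11.3 to 17.0), 2.87% at 14 h (2.06 to 3.91) and 0.900% at 22 h (0.477 to 1.55). The last rests on 13 counts against 885, and the intervals cover counting error only.

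**Figure D2:**
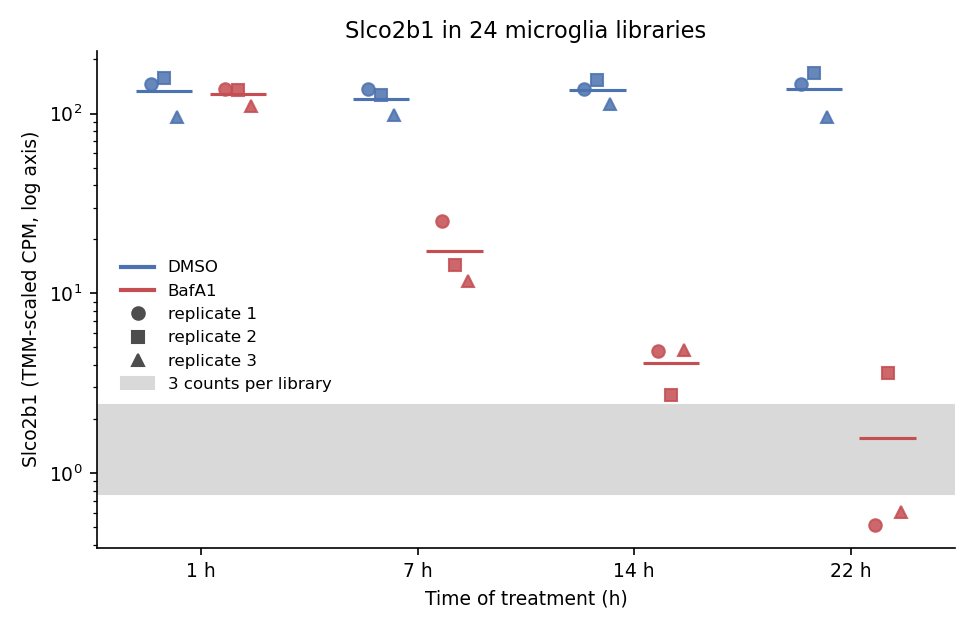
Slco2b1 in each of the 24 libraries in TMM-scaled CPM (log y axis) by time of treatment in h (x axis); symbols give the replicate number, short lines the group means, and the grey band the CPM worth 3 counts across libraries (0.765 to 2.38). BafA1 points overlap DMSO at 1 h and lie below it at 7, 14 and 22 h, down to 0.513 CPM.

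The decline per hour was steepest early. Between 1 and 7 h the effect of BafA1 moved by -2.73 ± 0.39 (log2, SE), between 7 and 14 h by -2.24 ± 0.47, and between 14 and 22 h by -1.55 ± 0.64. Within the BafA1 libraries alone this came to -0.48, -0.30 and -0.19 log2 units per hour, or 1 halving of the level per 2.09, 3.36 and 5.18 h on average over each interval. The last interval rests on libraries with 2 to 9 counts. These rates describe the level of the transcript and do not separate its synthesis from its decay.

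As the rule that chose the gene used these values, its place among other genes is a description. Among the 12648 tested genes Slco2b1 ranked 4617 from the lowest log2 change at 1 h, 16 at 7 h, 10 at 14 h and 5 at 22 h. Among the 9258 genes with a mean of at least 3 log2 CPM it ranked 6, 1 and 2 at 7, 14 and 22 h. At 22 h the genes just below it were Car8 (-6.73) and Dpysl4 (-6.76), and the genes just above it Pcdha3 (-6.58) and Col9a1 (-6.50). At 7 h the changes of these 4 were -1.03, -1.34, 1.01 and -0.54, against -2.79 for Slco2b1.

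Of 8722 genes with that mean level and a regular symbol, 1264 had a log2 change that became more negative at every step from 1 to 22 h. Only Pcdhga8, a clustered protocadherin, was lower than Slco2b1 at 22 h among them (-8.95, with 0 counts under BafA1, so that the size is set by the model). Reads of clustered protocadherins, Pcdha3 included, can be shared with other genes of the cluster. Pcdhga8 was at -0.16 at 7 h and -1.22 at 14 h. The next were genes known from oligodendrocyte precursors or neural cells: the glutamate receptor Grm5 (-5.92 at 22 h), the growth factor receptor Pdgfra (-5.67), the adhesion molecule Cntn1 (-5.31) and the transcription factor Olig1 (-5.22). At 7 h these 4 were at -0.67, -1.04, -0.40 and -0.89.

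Bulk RNA cannot tell fewer cells of a type from less RNA of a gene per cell, and several cell type markers moved along. The summed level of the 12 pan-myeloid genes under BafA1 was 90.0% of vehicle at 7 h, 85.6% at 14 h and 78.0% at 22 h. It ran from 4807 to 6460 CPM under BafA1 and from 5257 to 7131 under DMSO at 7 h, and from 4342 to 5792 against 5273 to 7368 at 22 h. Of these 12 genes 0 were higher and 1 lower at 7 h (percent of all genes called, either direction: 7.14), 1 and 4 at 14 h (24.1) and 1 and 6 at 22 h (39.9), and with a block for the replicate number 3 were lower at 7 h and 2 higher at 14 h. Aif1, a calcium-binding protein of microglia, fell by 1.94 at 14 h and by 2.64 at 22 h on the log2 scale, and the growth factor receptor Csf1r by 0.89 and 1.71. Coro1a, an actin regulator, fell by 3.13 at 22 h and the integrin Itgam by 1.79. The tetraspanin Cd53 rose, by 0.81 at 14 h and 1.54 at 22 h. Set against the summed pan-myeloid counts in place of the library total, the log2 difference of Slco2b1 was -0.04 at 1 h, -2.69 at 7 h, -4.77 at 14 h and -6.07 at 22 h.

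Markers of other cells were present, and at 7 h their sums under BafA1 were nearer to vehicle than Slco2b1 was. As Slco2b1 was chosen for its fall in these libraries, that distance describes the choice of the gene. The 12 oligodendrocyte lineage markers summed to 615 to 693 CPM in DMSO and 362 to 419 under BafA1 at 7 h, and to 590 to 737 against 95.8 to 126 at 22 h. Of the 11 tested, 5 were lower at 7 h, 7 at 14 h and 10 at 22 h, and 0 were higher, where 2.57, 12.1 and 22.0% of all genes were lower at those times, the shares against which the counts of the other markers also stand. Mog was at 0 in 12 of the 24 libraries. The 11 astrocyte markers summed to 210 to 382 CPM in DMSO and 182 to 339 under BafA1 at 7 h, and to 193 to 356 against 46.2 to 115 at 22 h. Of the 10 tested astrocyte markers 0, 4 and 7 were lower at 7, 14 and 22 h. The 6 neuron markers summed to 159 to 220 CPM in DMSO and 21.5 to 32.8 under BafA1 at 22 h, and 2 of 3 tested were lower at 14 and 22 h. Their part in the Slco2b1 result was not tested.

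Markers of endothelium, the other site of Slco2b1 in the brain, differed among themselves in level and course. The 9 endothelial markers summed to 72.2 to 92.9 CPM in DMSO and 61.2 to 85.3 under BafA1 at 7 h, and to 79.3 to 109 against 56.9 to 77.0 at 22 h. Most of it came from the growth factor receptor Flt1, which averaged 63.1 CPM in DMSO, while Pecam1 averaged 13.1 and Kdr 4.62 CPM, and these 3 had counts in every library. The junction gene Cldn5 was at 0 in 19 of the 24 libraries, Emcn in 20, Tek in 16 and Cdh5 in 7. Of the 4 tested, 0 were higher and 1 lower at 7 h, 1 and 1 at 14 h, and 0 and 1 at 22 h (4.57, 12.1 and 17.9% of all genes were higher). The lower one was Pecam1, an adhesion molecule of endothelium that some leukocytes also carry, which fell by 2.23 ± 0.48 (SE) at 7 h, 3.12 ± 0.50 at 14 h and 3.79 ± 0.56 at 22 h on the log2 scale. Kdr, a receptor of the same family as Flt1, was at 0.69 ± 0.42, -0.06 ± 0.42 and 0.33 ± 0.42, and was not called. Flt1 was at -0.02 ± 0.24 at 7 h, rose by 0.65 ± 0.23 at 14 h and was at -0.35 ± 0.24 at 22 h. Its call at 14 h was lost with library totals alone and without BafA1 14 h replicate 2, DMSO 14 h replicate 1 or DMSO 14 h replicate 3. The part of endothelial cells in the Slco2b1 result was not tested. The 7 fibroblast and mural markers (2 tested) had 0 calls at every time, although 1 was higher at 14 h and 2 were lower at 22 h once replicate number was a block. The 7 markers of border macrophages summed to 531 to 633 CPM in DMSO and 591 to 687 under BafA1 at 7 h. At 14 h they summed to 596 to 765 against 634 to 841 CPM, and at 22 h to 621 to 715 against 411 to 635. Most of it came from Ms4a7, which averaged 489 CPM in DMSO, while Pf4 averaged 85.9 and Mrc1 34.3. The log2 changes of the tested markers ran from -1.51 to 0.27 at 14 h and from -2.50 to -0.25 at 22 h, and the calls were Mrc1 and Pf4. Of 3 tested, 0, 2 and 2 were lower at 7, 14 and 22 h (1 at 7 h with the block), while Lyve1 was at 0 in 19 libraries and Cd163 in 12.

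**Figure D3:**
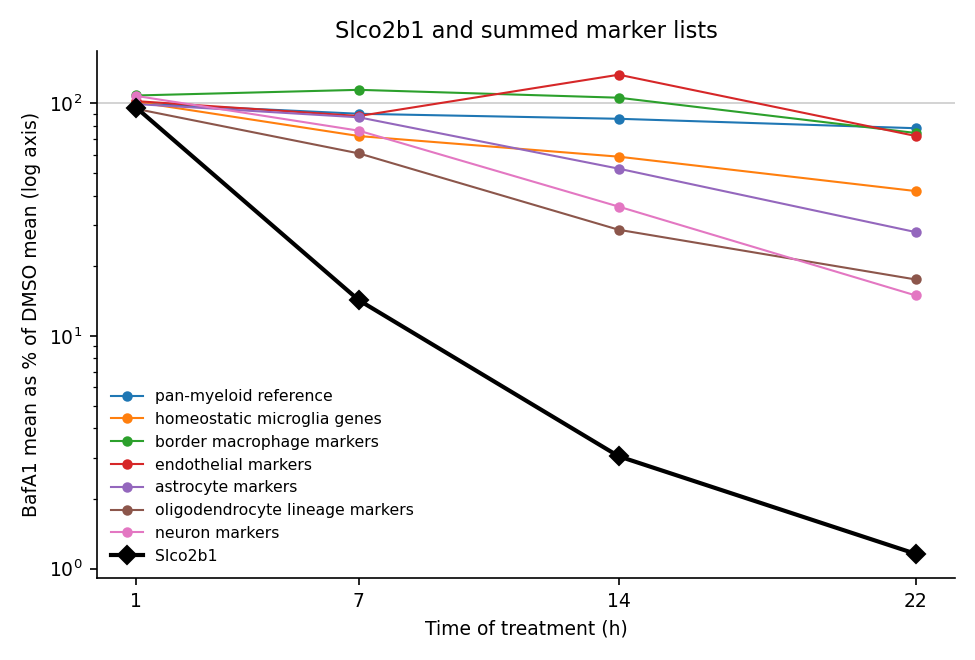
Mean level under BafA1 as a percentage of the DMSO mean of the same time (log y axis) by time of treatment in h (x axis), for Slco2b1 and for the summed CPM of 7 marker lists; each point compares 3 with 3 libraries. Slco2b1, chosen for its fall, was at 14.2% at 7 h, when the lists were at 60.8 to 114%, and at 1.16% at 22 h, when they were at 14.9 to 78.0%.

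Most other genes of resting microglia were lower too at 14 and 22 h. Of 22 tested homeostatic genes 1 was higher and 5 lower at 7 h, 1 and 15 at 14 h, and 1 and 16 at 22 h, with median log2 changes of -0.50, -1.03 and -1.88. Over all genes the percentages lower were 2.57, 12.1 and 22.0, and the medians -0.02, -0.05 and -0.06. A block for the replicate number raised this to 13 lower at 7 h. The purinergic receptor P2ry12 fell by 3.29 at 14 h and by 4.31 at 22 h on the log2 scale. The receptor Gpr34 fell by 2.59 and 4.46, and Tmem119 by 3.93 at 22 h. The fractalkine receptor Cx3cr1 fell by 1.12 at 7 h, 1.66 at 14 h and 3.12 at 22 h. Cd33, an inhibitory sialic acid receptor, rose by 1.51, 1.65 and 1.05.

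The rest of the SLCO family gave few counts in these cells. Of its 14 other members 5 were tested (Slco1c1, Slco3a1, Slco4a1, Slco5a1 and Slco6d1), and 0 of the 5 were called at any time by edgeR's quasi-likelihood test, by DESeq2 or by limma-voom, and 0 had an unadjusted p under 0.05, beside 7.14, 24.1 and 39.9% of all genes at 7, 14 and 22 h. Their log2 changes ran from -1.02 to 0.26 at 7 h, from -0.29 to 1.62 at 14 h and from -1.27 to 0.36 at 22 h, with standard errors of 0.34 to 1.12. Slco4a1, a carrier of thyroid hormone and organic anions, was at 7.13 ± 3.56 CPM in DMSO and 11.6 ± 4.66 under BafA1 at 14 h (log2 change 0.70 ± 0.37, adjusted p = 0.172 by the quasi-likelihood test). Without DMSO 14 h replicate 2 that change was 1.19 with an adjusted p of 0.0435 by the same test. Slco3a1, a broadly expressed member, was at 6.47 ± 4.45 CPM in DMSO and 5.46 ± 4.58 under BafA1 at 22 h. The remaining 9 gave at most 11.8 counts in any library and were not tested, among them the prostaglandin carrier Slco2a1 (74.8 counts over the 24 libraries) and the brain endothelial Slco1a4 (59.5).

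Among solute carriers in general, higher calls outnumbered lower ones with TMM scaling, but not at 22 h with library totals alone. Of 197 tested Slc and Slco genes other than Slco2b1, 15 were higher and 4 lower at 7 h (25 and 9 with the replicate number as a block), 44 and 21 at 14 h (53 and 25), and 54 and 42 at 22 h (61 and 43). Over all genes 4.57% were higher and 2.57% lower at 7 h, 12.1% and 12.1% at 14 h, and 17.9% and 22.0% at 22 h. With library totals alone 13 carriers were higher and 7 lower at 7 h, 34 and 23 at 14 h, and 43 and 45 at 22 h. With TMM, leaving out BafA1 7 h replicate 3 left 1 lower at 7 h, and leaving out DMSO 7 h replicate 2 left 2. Their median log2 change was -0.01, 0.18 and 0.19 at 7, 14 and 22 h. The value of Slco2b1 was below all 197 at 7, 14 and 22 h, which describes the choice of the gene, and at 1 h 74 lay below it.

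None of the carriers with the 10 largest falls at 22 h was called lower at 7 h. The urea transporter Slc14a1 fell by 4.97 on the log2 scale, the neuronal glutamate transporter Slc1a1 by 4.58, and the sodium-calcium exchanger Slc8a2 by 4.39. The endosomal sodium-proton exchanger Slc9a9 fell by 4.19. At 7 h these 4 were at -1.12, -0.65, -0.93 and -0.25. The astrocytic glutamate transporter Slc1a2 fell by 3.59, the dicarboxylate transporter Slc13a3 by 3.23, Slc22a23 by 3.20, the bicarbonate transporter family member Slc4a11 by 3.18 and Slc8a3 by 3.16. At 7 h these 5 were at -0.39, -1.46, -0.27, -2.01 and -1.09, and the value of Slc4a11 was the lowest of the 197 (adjusted p = 0.144, edgeR quasi-likelihood). Levels were low in several. At 22 h Slc14a1 was at 8.06 CPM in DMSO and 0.267 under BafA1, and Slc8a2 at 5.49 and 0.267. Slc13a3 was at 5.27 and 0.443, Slc4a11 at 3.88 and 0.389, and Slc8a3 at 2.22 and 0.219. Those BafA1 means lay below 3 counts in each BafA1 library of 22 h (0.765 to 1.20 CPM). Their SEs at 7 h were 0.37 to 0.79, so the lack of a call there says little. The call of Slc8a3 at 22 h was lost without BafA1 22 h replicate 3. The 4 carriers called lower at 7 h were Slc46a3, which fell by 1.91 at 7 h, 3.00 at 14 h and 2.93 at 22 h, Slc12a9 (-1.10 at 7 h), Slc35a1 (-0.78) and Slc37a2 (-0.67). In the other direction, the cystine exchanger Slc7a11 rose by 4.30 at 22 h, from 11.1 ± 2.93 to 222 ± 59.5 CPM, Slc22a4 by 3.46, Slc43a3 by 3.33, the lactate exporter Slc16a3 by 2.39 and the creatine transporter Slc6a8 by 2.38.

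**Figure D4:**
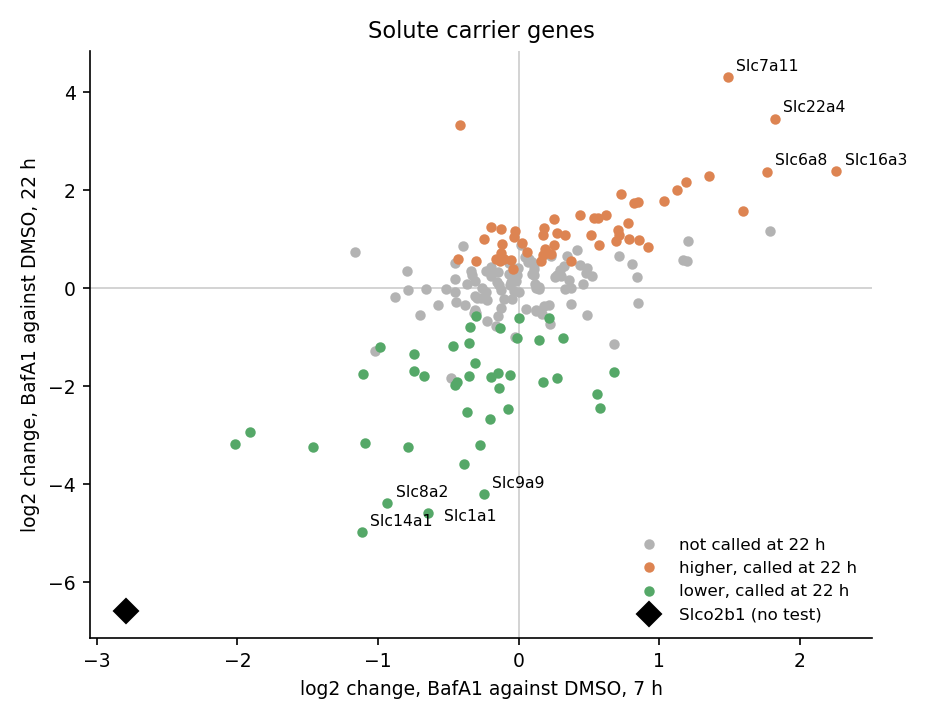
Log2 change under BafA1 against DMSO at 7 h (x axis) and at 22 h (y axis) for 197 solute carrier genes and Slco2b1; each point is 1 gene, coloured by its call at 22 h. Slco2b1 lies at -2.79 and -6.59, while Slc14a1, Slc1a1, Slc8a2 and Slc9a9 lie at -4.97 to -4.19 on the y axis and at -1.12 to -0.25 on the x axis.

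Pumps and carriers that handle the same kinds of anions moved in both directions. Of 10 tested genes for organic anion and conjugate transport, 0 were called at 7 h (2 had an unadjusted p under 0.05, and DESeq2 called 0), 3 were higher and 3 lower at 14 h, and 2 and 4 at 22 h (12.1 and 12.1% of all genes at 14 h, 17.9 and 22.0% at 22 h). The list's median log2 change was -0.12, -0.04 and -0.01. The exporter Abcg2, known for urate, porphyrins and sulfate conjugates, fell by 1.31 at 14 h and 2.25 at 22 h, and Abcc3, an exporter of glucuronides, by 1.14 and 1.87. Abcc1, an exporter of glutathione conjugates, rose by 1.41 and 0.81. Slc22a4, a carrier of ergothioneine, rose by 3.14 at 14 h, from 0.780 ± 1.09 to 6.43 ± 2.27 CPM, with the DMSO mean below the level of 3 counts in each DMSO library of that time (0.947 to 1.51 CPM).

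Genes tied to known cargo of the carrier were mixed. Of 13 tested genes of thyroid hormone transport and action, 1 was higher and 0 lower at 7 h (2 higher with the block), 3 and 1 at 14 h (3 lower with the block), and 2 and 6 at 22 h, with medians of 0.12, -0.19 and -0.52. Over all genes 4.57% were higher and 2.57% lower at 7 h, 12.1% and 12.1% at 14 h, and 17.9% and 22.0% at 22 h. Slc3a2, the heavy chain of amino acid transporters that also carry thyroid hormone, rose by 0.82, 1.18 and 1.74. The hormone receptor Thra fell by 1.19 at 14 h and 2.05 at 22 h, the response gene Klf9 by 1.19 at 22 h and the light chain Slc7a8 by 1.02. Thrb fell by 2.49 at 22 h from a level of 3.36 ± 2.50 CPM, and its call was lost without BafA1 22 h replicate 1 or DMSO 22 h replicate 1.

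Of 18 tested genes of steroid handling and of sulfation and sulfatases in general, 1 was higher and 0 lower at 7 h, 2 and 3 at 14 h (3 and 5 with the block), and 1 and 4 at 22 h (2 and 5 with the block), with medians of -0.14, -0.24 and -0.16. Of all genes 4.57% were higher and 2.57% lower at 7 h, 12.1% and 12.1% at 14 h, and 17.9% and 22.0% at 22 h. The share of the list lower at 22 h was near that of all genes. Hsd17b7, which acts in cholesterol and estradiol synthesis, rose by 1.10 at 7 h and 0.53 at 14 h and fell by 0.51 at 22 h. Its adjusted p was 0.0430 at 14 h and 0.0476 at 22 h (edgeR quasi-likelihood). The 14 h call was lost in 5 of the 6 fits without 1 of its libraries (all but BafA1 14 h replicate 2), with no filter on low counts, with library totals alone and with thinning. The 22 h call was lost in 5 of 6 such fits (all but BafA1 22 h replicate 1), by DESeq2 and limma-voom, with other filters, with thinning and with only the groups compared. Hsd17b12, which also elongates fatty acids, rose by 0.87 at 14 h and 0.57 at 22 h. Papss1, which makes the sulfate donor, fell by 1.00 and 1.23, and the sulfotransferase Sult1a1 fell by 3.82 at 14 h from 4.75 ± 1.62 CPM. Arsb, in the list as a lysosomal sulfatase and not for acting on steroids, fell by 1.36 at 22 h and is 1 of the 4 lower then.

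Genes of heme and porphyrin handling were more often higher than lower at 14 and 22 h. Of 21 tested, 2 were higher and 0 lower at 7 h (2 lower with the block or with library totals alone), 5 and 2 at 14 h, and 6 and 1 at 22 h, with medians of -0.07, 0.21 and 0.37. Over all genes 4.57% were higher and 2.57% lower at 7 h, 12.1% and 12.1% at 14 h, and 17.9% and 22.0% at 22 h. Hmox1, which breaks heme down, rose by 0.73 at 7 h, 2.03 at 14 h and 1.42 at 22 h. The heme exporter Flvcr1 rose by 0.78, 1.39 and 1.49, and the mitochondrial iron importer Slc25a37 by 1.82 at 14 h and 1.42 at 22 h. Abcg2, counted above, is also in this list and was lower.

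The genes with the most similar pattern were found by Pearson correlation of log2 CPM over the 24 libraries, which share treatment, time and depth. Of the 10 highest, 9 are described here: Hpgd (r = 0.985), Mtus1 (0.977), Slc37a2 (0.974), Sox8 (0.970), Clec4a2 (0.969), Sesn1 (0.966), Ptgs1 (0.966), Ucp2 (0.964) and Itga6 (0.964). The 11th, Sting1, was at 0.963, the median of the 8721 genes compared was -0.10, and 31 genes were over 0.95. Over the 8 group means only 3 of the 10 were again in the top 10, and by Spearman's rank correlation 2 were, so the order near the top is loose.

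Each of the 9 was lower under BafA1 at 7, 14 and 22 h with no overlap of the groups, a direction that their choice by correlation largely sets. None reached the size of Slco2b1, which was itself chosen for its large decline. Hpgd, which inactivates prostaglandins, was closest in course, with log2 changes of -1.98, -3.21 and -4.15 and levels of 258 ± 72.1 CPM in DMSO and 14.5 ± 2.90 under BafA1 at 22 h. The transcription factor Sox8 was at -1.76, -3.37 and -3.80. Ptgs1, which starts prostaglandin synthesis, was at -0.90, -1.69 and -2.70, and the lectin receptor Clec4a2 at -1.78, -2.26 and -2.85. The stress-induced Sesn1 was at -1.25, -2.21 and -3.17, and the laminin-binding integrin Itga6 at -0.81, -1.41 and -2.75. The smallest were the mitochondrial carrier Ucp2 (-2.05 at 22 h), the microtubule-associated Mtus1 (-2.27) and the sugar phosphate carrier Slc37a2 (-1.79). In the 12 DMSO libraries alone, where treatment plays no part, r with Slco2b1 was 0.864 for Ptgs1, 0.80 for Slc37a2 and 0.778 for Hpgd. It was 0.740 for Ucp2, 0.736 for Clec4a2, 0.638 for Itga6, 0.503 for Mtus1, 0.456 for Sesn1 and 0.057 for Sox8. These 12 libraries come from 3 replicate numbers, so the points are not independent. In replicate 3 both Slco2b1 and the pan-myeloid counts were lower.

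**Figure D5:**
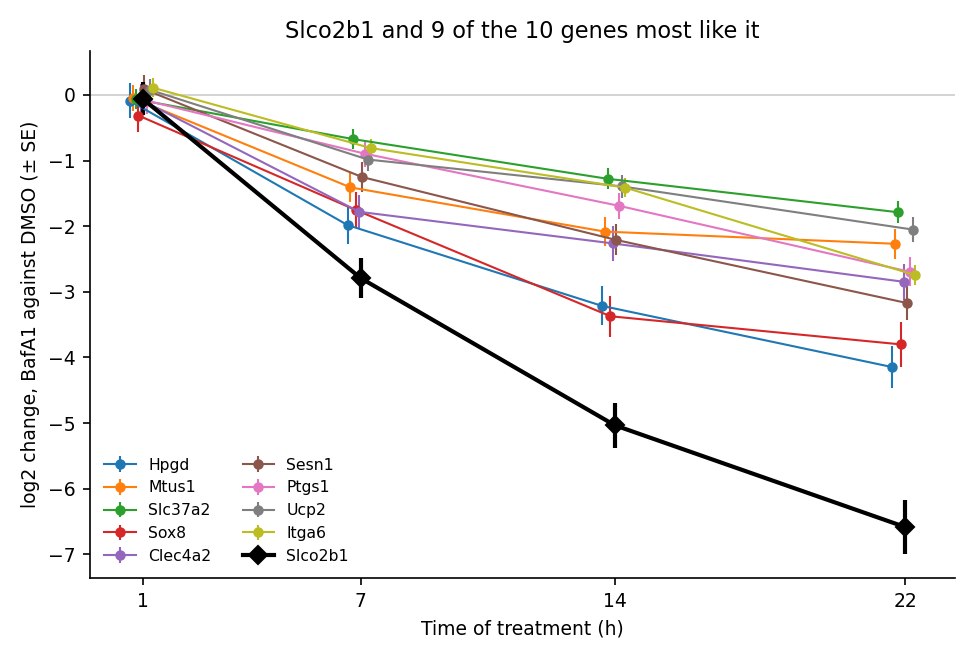
Log2 change under BafA1 against DMSO with its SE (y axis) by time of treatment in h (x axis) for Slco2b1 (black) and 9 of the 10 genes most correlated with it, shifted slightly sideways for legibility. Slco2b1, chosen for its decline, reaches -6.59 at 22 h and the 9 others -4.15 to -1.79.

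The genes next to Slco2b1 on chromosome 7 showed smaller changes. The nearest on the side of lower coordinates, Tpbgl, was at -0.93 ± 0.33 at 7 h (adjusted p = 0.0900, edgeR quasi-likelihood) and fell by 0.96 ± 0.30 at 14 h and 1.24 ± 0.32 at 22 h. Its 14 h call was lost without BafA1 14 h replicate 2 or 3 or DMSO 14 h replicate 1 or 3, with no filter on low counts (adjusted p = 0.144, edgeR quasi-likelihood) and with libraries thinned to the smallest total (0.114). Arrb1, which encodes the signalling adaptor beta-arrestin, was at -0.50 ± 0.18 at 7 h, rose by 0.47 ± 0.17 at 14 h and was at 0.32 ± 0.17 at 22 h. The call of Arrb1 at 14 h was lost in 5 of the 6 fits that left out 1 of its libraries (all but BafA1 14 h replicate 3), with no filter on low counts (adjusted p = 0.0569, edgeR quasi-likelihood), with library totals alone (0.0547) and with thinning (0.13). With a block for the replicate number both were called lower at 7 h (-0.92, adjusted p = 0.0231, and -0.51, adjusted p = 0.0206, edgeR quasi-likelihood). The ribosomal protein gene Rps3 rose by 0.43 ± 0.13 at 22 h and was not called earlier. On the other side, Olfr520, Olfr521 and Neu3 gave 2, 9 and 55 counts over the 24 libraries and were not tested.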

How the data were processed

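Per the labels' protocols, the 24 mouse microglia libraries are 3′ tag libraries with molecular identifiers, read at 75 bp from 1 end. The authors quantified with Salmon, and their build is GRCm39, per the submitters' processing notes (versions not given in the sources used here). They deposited estimated counts per gene and log2 CPM. The deposited log2 CPM values differed by at most 0.00121 from those recomputed with TMM factors over all listed genes. Levels here use TMM factors over the tested genes and so differ more (Slco2b1 in DMSO 22 h replicate 2 was at 7.39 log2 CPM here and 7.27 as deposited). Groups come from the labels.

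Estimated counts were rounded and fitted with edgeR 4.0.16 in R 4.3.3 (quasi-likelihood, TMM, filterByExpr, 1 coefficient per group over all 24 libraries), with Benjamini-Hochberg adjustment over 12648 tested genes, which left out 0.701% of counts. SE is the log2 change divided by the square root of F. DESeq2 1.42.0 and limma-voom 3.58.1 were alternatives. Depth per library is given with the results. Slco2b1 and all lists were chosen with earlier results of these data known. Named genes are, per list and time, up to 4 called members of largest change (the 2 most abundant where under 2 are called), some at other times too; the 10 most correlated genes of at least 3 mean log2 CPM; the 10 largest falls and 5 largest rises of carriers at 22 h; the next 5 progressive genes; and 3 neighbours per side. Car8, Dpysl4, Pcdha3, Col9a1, Sting1, Slc7a8, Slc46a3, Slc12a9, Slc35a1 and Kdr, and the marker genes with counts of 0, were named after their values were seen, and some members that the rule names are covered by counts alone or not reported here.

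Same-numbered libraries of DMSO and BafA1 deviated together from their group means in 12 of 12 pairs (r 0.143 to 0.339, over the 0.1 required), so the numbers were taken to pair samples. Blocked values stand beside some of the results they change. Over all genes the block gave 2003 higher and 2163 lower at 14 h, and 2691 and 3289 at 22 h. Several list counts of 14 and 22 h that it also moved are given from the fit without it. On simulated counts (12330 genes fitted) the DMSO 22 h comparison recovered 46% of 2-fold and 80% of 4-fold changes. Promoter sequences and neighbouring genes are RefSeq's on GRCm38.p6, matched by symbol (7 of the 10 correlated genes had windows, of which 1 held GAGGAAGT, 2 TGANTCA, 1 CACGTG and 1 ACGTG).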

Additional observations from a re-analysis of the deposited data

Results flagged for a closer look

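Arrb1, a neighbour of Slco2b1, was the only result of this kind among the SLCO family and the neighbours: its BafA1 effect at 14 h exceeded that at 7 h by 0.97 ± 0.25 on the log2 scale (adjusted p = 0.0372, edgeR quasi-likelihood test of the difference). It was at 65.5 ± 3.34 CPM in DMSO and 46.4 ± 12.6 under BafA1 at 7 h, and at 68.4 ± 6.63 and 94.4 ± 9.70 at 14 h (SD, n = 3), with the groups apart in opposite directions at the 2 times. Groups of 3 libraries are too small for a search for single outlying samples.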

How the results depend on the processing

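The log2 change of Slco2b1 under BafA1 kept its sign at 7, 14 and 22 h in each of the 11 alternatives that kept all libraries, with ranges of -2.94 to -2.69, -5.11 to -4.73 and -6.90 to -5.69, the last from libraries thinned to the smallest total (chosen after seeing the data). Leaving out 1 library gave -3.25 to -2.54 at 7 h, -5.16 to -4.80 at 14 h, -7.80 to -6.10 at 22 h and -0.26 to 0.07 at 1 h. In DMSO, thinning gave -0.010 at 14 h and -0.082 at 22 h against 1 h, and leaving out 1 library gave -0.17 to 0.15 and -0.17 to 0.22, and -0.32 to -0.01 at 7 h, with 0 calls. The joint test of DMSO times gave an adjusted p of 0.985 to 1 without 1 library and 0.923 with the replicate block (edgeR quasi-likelihood). The replicate block changed no call of Slco2b1 in DMSO. At 7 h, the SLCO, organic anion, thyroid hormone, steroid, heme and homeostatic lists together had 5 lower members, all among the 22 tested homeostatic genes. They had 9 without scaling factors (also chosen after seeing the data) and 15 with the replicate block. Over all genes the lower calls in these fits were 325, 404 and 649. Carriers higher were 15, and 25 with the replicate block; carriers lower were 4, 7 without scaling factors, 9 with the replicate block and 1 to 3 without 1 library. With no filter on low counts, 1 carrier was lower at 1 h. Over all genes at 7 h, 906 were higher and 649 lower with the replicate block against 578 and 325. Of the 10 genes most like Slco2b1, 3 were shared with the ranking over 8 group means and 2 with Spearman's. The cause of these shifts was not tested. At 22 h, 2 of 3 BafA1 libraries lay under 3 counts, so depth limits the size of that change.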
